A study of Mus musculus with 18 samples.

Results

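Mitochondrial ribosomal proteins are made from nuclear genes, imported into mitochondria and assembled there with ribosomal RNA from the mitochondrial genome. The resulting mitoribosome translates the few mRNAs of that genome, all of which encode membrane subunits of the respiratory chain and the ATP synthase. Proteins named Mrpl belong to the large subunit, which forms peptide bonds, and proteins named Mrps to the small subunit, which reads the mRNA. The members were taken by name: every counted gene whose RefSeq mouse symbol is Mrpl or Mrps followed by a digit. This gave 78 members, 49 Mrpl and 29 Mrps, of 28096 genes counted, 25035 of which have a symbol. All 78 passed the expression filter and were tested. The names are not a perfect guide. Mrps18a and Mrps30 are known to sit in the large subunit, and Mrps36 is now known as a component of the 2-oxoglutarate dehydrogenase complex.

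The libraries came from splenic B cells of WT and Ubqln1-/- mice on the C57BL/6 N strain, at least 8 weeks old. Cells were left resting or cultured with anti-IgM F(ab)2 at 10 μg/mL, which crosslinks the B cell receptor, or with LPS of K12 E. coli at 20 μg/mL, which engages a Toll-like receptor. RNA was taken after 4 hr, and each of the 6 groups had 3 libraries. UBQLN1 is a cytosolic ubiquitin-binding protein that handles mitochondrial proteins before import, and the design asks whether its loss alters the response of B cells to each stimulus. The Ubqln1-/- allele lacks exon 2 in all cells of the animal, and no WT group carries it. Wells of one stimulation were pooled before RNA purification, so a library holds several wells.

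Sequencing gave 15368941 to 41072854 counted reads a library (median 23257531), of which the members took 0.208% to 0.296%. Ubqln1 was at 229.5 to 339.2 CPM (counts scaled to library size, here with TMM factors) in the WT libraries and at 91.43 to 128.4 CPM in the Ubqln1-/- libraries, without overlap. Reads from the exons outside the deletion are still counted. The B cell markers Cd79b (719 to 2350 CPM), Ms4a1 (302 to 984 CPM) and Pax5 (48.0 to 218 CPM) were present throughout, while the T cell marker Cd3e never exceeded 0.137 CPM and Lyz2 of myeloid cells never exceeded 6.82 CPM. The summed level of these 3 and Cd79a was 4515 ± 347 CPM (SD, n = 3) in resting WT cells, 1565 ± 229 CPM with anti-IgM and 3126 ± 440 CPM with LPS. The Ubqln1-/- cells had 4647 ± 211, 1677 ± 119 and 3375 ± 277 CPM in the same order. With anti-IgM every listed B cell marker was lower in both genotypes (edgeR, adjusted p under 0.05), as were 32.2% and 32.4% of all genes. With LPS in WT cells only 2 were lower, beside 30.1% of all genes, so the lower sum there is not a fall of every marker. The sum of 5 myeloid markers in WT cells was 11.2 CPM at rest, 8.01 CPM with anti-IgM and 3.86 CPM with LPS, and that of 5 T cell markers did not exceed 1.17 CPM in any library. The part of these shifts in the results below was not tested. In bulk RNA, fewer cells of a type and less RNA per cell cannot be told apart. All levels and changes given here are relative to the counted RNA of a library, and total RNA per cell was not measured.

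Promoter sequences of 6 members are shown, chosen so that members that rose, fell or were not called can be read side by side. Each is the RefSeq window (GRCm38.p6) from 250 bases before to 50 bases after a start site, written 5′ to 3′ on the strand of the gene. Capitals mark exact matches, on either strand, to an E-box (CACGTG, bound by MYC among others), an ETS motif (CCGGAAG), an NRF1 motif (GCGCA and GCGC with any 1 base between) or a YY1 motif (AAGATGGC). Mrpl17 and Mrpl12 rose most in WT cells, Mrpl45 rose with LPS alone, Mrps16 fell with both stimuli, Mrps18c was called with neither, and Mrps11 shares its promoter region with Mrpl46. Mrps16 has a second RefSeq window, at the 5′ end of the annotated gene (chr14:20393585-20393884), which holds no match to any of these motifs. The one shown starts within the gene.
Mrpl17 (chr7:105811038-105811337, minus strand): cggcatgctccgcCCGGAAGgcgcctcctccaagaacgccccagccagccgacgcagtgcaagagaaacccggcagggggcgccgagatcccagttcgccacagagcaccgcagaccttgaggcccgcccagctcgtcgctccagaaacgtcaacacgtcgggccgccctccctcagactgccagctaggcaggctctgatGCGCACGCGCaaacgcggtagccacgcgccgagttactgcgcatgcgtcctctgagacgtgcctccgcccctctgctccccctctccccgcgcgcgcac
Mrpl12 (chr11:120484387-120484686, plus strand): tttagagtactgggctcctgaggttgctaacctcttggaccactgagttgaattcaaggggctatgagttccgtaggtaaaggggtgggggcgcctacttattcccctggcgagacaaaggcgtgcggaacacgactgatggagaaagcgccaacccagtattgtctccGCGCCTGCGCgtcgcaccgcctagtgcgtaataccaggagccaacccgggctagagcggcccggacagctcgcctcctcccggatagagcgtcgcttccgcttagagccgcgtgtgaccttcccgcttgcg
Mrpl45 (chr11:97315466-97315765, plus strand): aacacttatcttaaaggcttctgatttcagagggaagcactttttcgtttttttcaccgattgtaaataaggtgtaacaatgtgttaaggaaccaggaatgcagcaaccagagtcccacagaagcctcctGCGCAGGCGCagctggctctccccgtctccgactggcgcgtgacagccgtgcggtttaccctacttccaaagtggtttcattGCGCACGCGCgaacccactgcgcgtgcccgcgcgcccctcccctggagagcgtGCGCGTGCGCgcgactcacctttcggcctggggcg
Mrps16 (chr14:20393441-20393740, minus strand): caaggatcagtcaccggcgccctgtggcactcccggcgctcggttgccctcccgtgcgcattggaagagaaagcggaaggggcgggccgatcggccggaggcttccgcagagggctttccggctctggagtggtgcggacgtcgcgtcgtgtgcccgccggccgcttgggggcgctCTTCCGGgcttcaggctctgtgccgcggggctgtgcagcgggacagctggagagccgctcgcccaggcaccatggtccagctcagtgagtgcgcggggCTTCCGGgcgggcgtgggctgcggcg
Mrps18c (chr5:100798509-100798808, plus strand): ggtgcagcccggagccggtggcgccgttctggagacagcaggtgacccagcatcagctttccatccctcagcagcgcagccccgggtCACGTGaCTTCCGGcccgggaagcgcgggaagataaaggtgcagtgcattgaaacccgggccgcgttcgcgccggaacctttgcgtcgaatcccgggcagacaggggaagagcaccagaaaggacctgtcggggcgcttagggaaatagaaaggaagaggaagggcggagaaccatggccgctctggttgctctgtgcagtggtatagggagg
Mrps11 (chr7:78782881-78783180, plus strand): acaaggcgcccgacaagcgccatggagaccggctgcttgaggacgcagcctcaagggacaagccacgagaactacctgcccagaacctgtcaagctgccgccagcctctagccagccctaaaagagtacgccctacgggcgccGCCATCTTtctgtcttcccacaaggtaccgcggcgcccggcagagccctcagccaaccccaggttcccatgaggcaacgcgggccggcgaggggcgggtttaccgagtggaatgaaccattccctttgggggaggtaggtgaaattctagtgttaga

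Levels per length differed widely among the members. In resting WT cells their mean RPKM (CPM divided by gene length in kilobases) ran from 1.28 to 92.9 with a median of 23.01, and the level at the 90th percentile was 5.05 times that at the 10th. With anti-IgM the median was 29.7 RPKM, and with LPS 28.9 RPKM. The 5 members with the highest mean over all libraries were Mrpl24, Mrpl52, Mrpl54, Mrpl12 and Mrps7. Mrpl24 stood at 92.9 ± 5.78, 92.2 ± 8.82 and 89.8 ± 6.65 RPKM (SD, n = 3) in resting, anti-IgM and LPS-treated WT cells, and its means differed by less than their SD. At the other end were Mrps33 (3.15 ± 0.612 RPKM in resting WT cells), Mrps36 (1.43 ± 0.400 RPKM) and Mrpl23 (1.28 ± 0.131 RPKM). Mrpl23 rested on 12 to 48 counts per library and Mrps36 on 13 to 42. RefSeq lists 6 pseudogenes with member names, among them copies of Mrpl23, Mrpl27, Mrpl48 and Mrps36, and none of these has a row of its own in the counts. How reads shared with such copies were assigned is not given in the sources used here, so the levels of these members are uncertain. The order of members by RPKM was similar in resting WT cells and in LPS-treated Ubqln1-/- cells (Spearman's rho 0.908 across 78 genes, which share libraries and gene lengths and are not independent replicates).

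Most members rose within 4 hr of B cell receptor crosslinking. In WT cells 55 of 78 were higher with anti-IgM and 5 were lower (edgeR quasi-likelihood test, adjusted p under 0.05), while of all 14161 genes tested 32.4% were higher and 32.2% lower. The median log2 fold change was 0.41 over the members, a fold of 1.33, against -0.0096 over all genes. Ubqln1-/- cells had 53 higher and 4 lower, beside 32.9% and 32.4% of all genes, with medians of 0.46 and -0.018. The summed level of the 78 members was 2047, 2321 and 2134 CPM in the 3 resting WT libraries and 2826, 2940 and 2895 CPM with anti-IgM. The Ubqln1-/- libraries had 2121, 2174 and 2138 CPM at rest and 2849, 2903 and 2855 CPM with anti-IgM. Stimulated and resting libraries did not overlap in either genotype. Gene by gene, all stimulated libraries lay above all resting ones for 57 members in WT cells and 59 in Ubqln1-/- cells (33.4% and 35.6% of all genes), and below them for 4 and 5 (32.8% and 35.7%). Changes were moderate in size: 5 members in each genotype exceeded a log2 fold change of 1, as did 20.6% and 20.3% of all genes in either direction, and none passed the study's own threshold of an adjusted p under 0.001 with a log2 fold change over 2, as 3.76% and 3.64% did.

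LPS gave a rise of the same order. In WT cells 53 members were higher and 5 lower (background 31.2% and 30.1%), and in Ubqln1-/- cells 57 were higher and 5 lower (background 30.6% and 30.2%). The median log2 fold changes of the members were 0.40 in each genotype, against -0.010 and -0.020 for all genes. The summed level was 2881, 3053 and 2679 CPM in the WT libraries and 2860, 3008 and 2812 CPM in the Ubqln1-/- libraries, in each case above every resting library. A log2 fold change over 1 was seen for 3 members in WT cells and 7 in Ubqln1-/- cells, where 15.8% and 15.9% of all genes passed it in either direction, and 0 members passed the study's threshold (1.8% and 1.74% of all genes). For 54 and 57 members all LPS libraries lay above all resting ones (31.8% and 33.5% of all genes), and for 5 in each genotype below (30.5% and 34.0%). Across the 4 comparisons with resting cells, which share the resting libraries within a genotype, 48 members were called higher every time, Mrpl49, Mrps16 and Mrps25 were called lower every time, and 10 were called in none. Altogether 61 members were higher in at least 1 comparison and 8 were lower in at least 1. The matching shares of all genes over the 4 comparisons were not computed, so these joint counts have no background beside them.

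**Figure D1:**
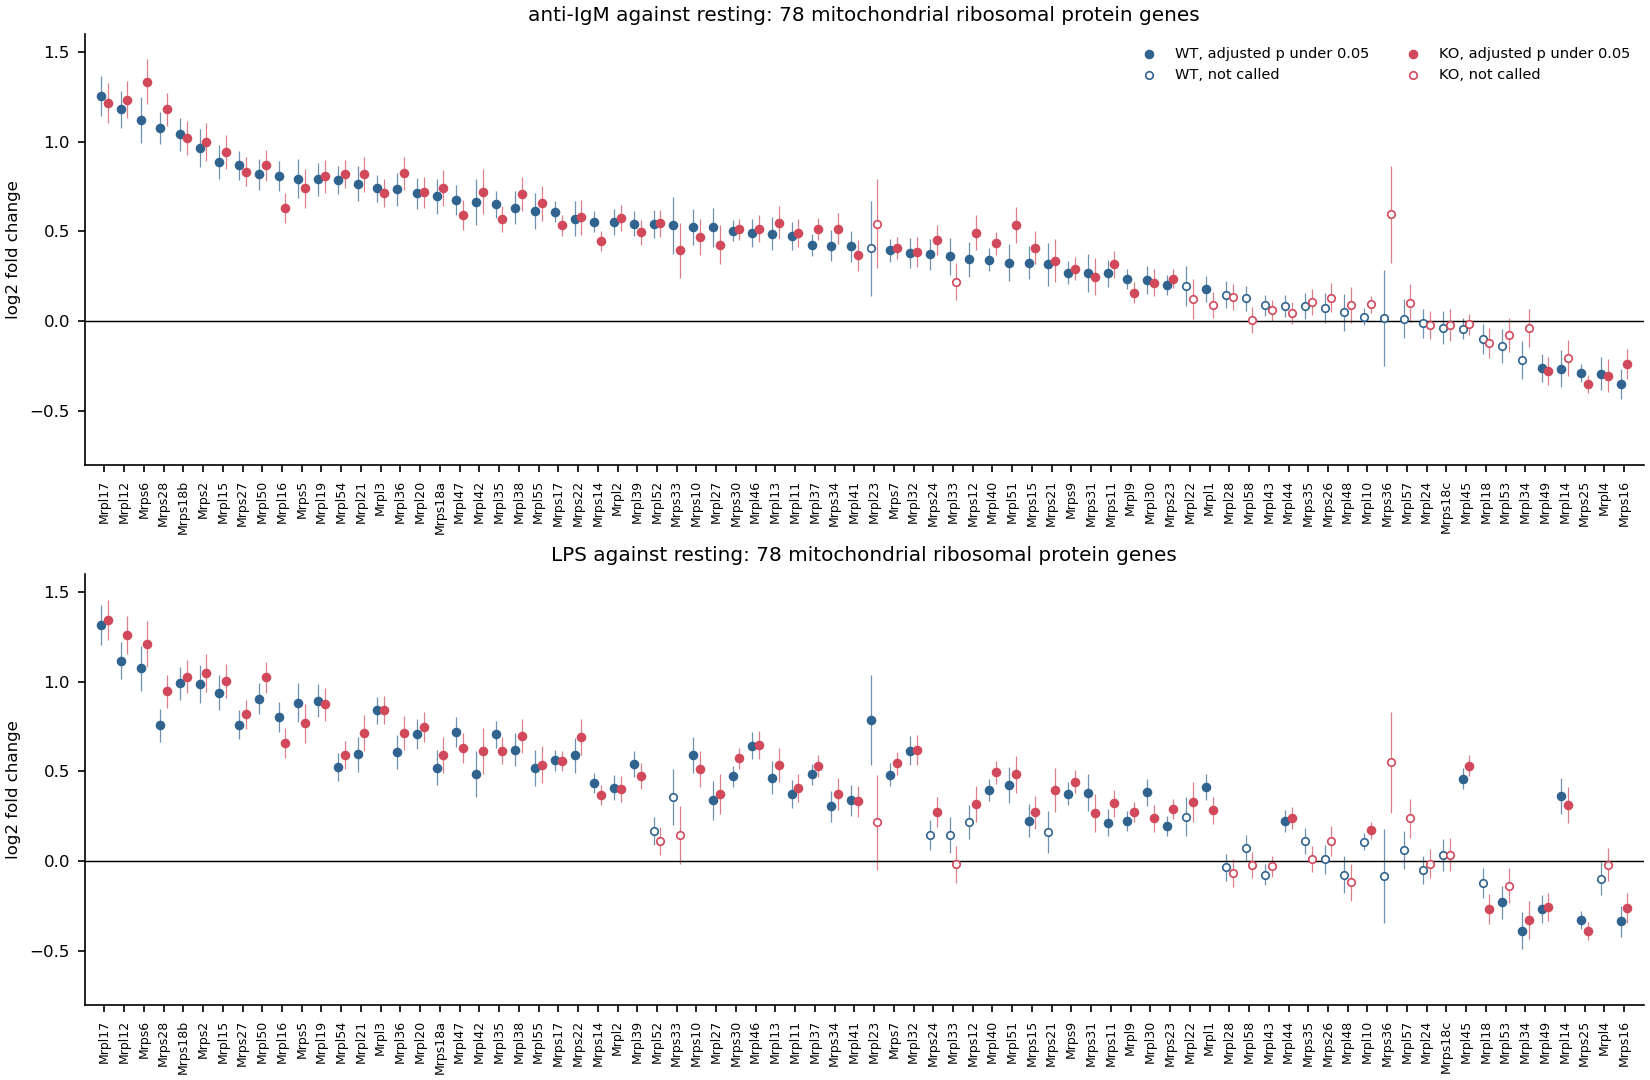
Log2 fold change of each of the 78 members with anti-IgM (top) and LPS (bottom) against resting cells, ordered by the anti-IgM value in WT cells. Points are edgeR estimates for WT (blue) and Ubqln1-/- (KO, red) cells, bars are standard errors, and filled points passed an adjusted p of 0.05. Most filled points lie above 0 in both panels, and Mrpl45 and Mrpl14, at the right, lie above 0 with LPS only.

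Both subunits took part. Summed over the 49 Mrpl genes, the level in WT cells was 1402 ± 94.5 CPM at rest, 1883 ± 30.0 CPM with anti-IgM and 1894 ± 128 CPM with LPS (SD, n = 3). Over the 29 Mrps genes it was 765.6 ± 48.3, 1005 ± 27.3 and 977.0 ± 58.9 CPM. The ratio to resting cells was therefore 1.34 and 1.35 for the large subunit and 1.31 and 1.28 for the small one. With anti-IgM in WT cells 32 of 49 Mrpl members and 23 of 29 Mrps members were called higher, and with LPS 34 and 19. The Ubqln1-/- counts were 30 and 23 with anti-IgM and 35 and 22 with LPS. Beside these stood 32.4% of all genes higher with anti-IgM and 31.2% with LPS in WT cells. The shares in Ubqln1-/- cells were 32.9% and 30.6%. Members with a bacterial relative and members known only from mitochondria both responded, with Mrps18a and Mrps30 counted in the large subunit. With anti-IgM in WT cells 21 of 30 and 13 of 21 were higher in the large subunit, and 14 of 16 and 7 of 10 in the small subunit. The share of all genes in that comparison was 32.4%.

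**Figure D2:**
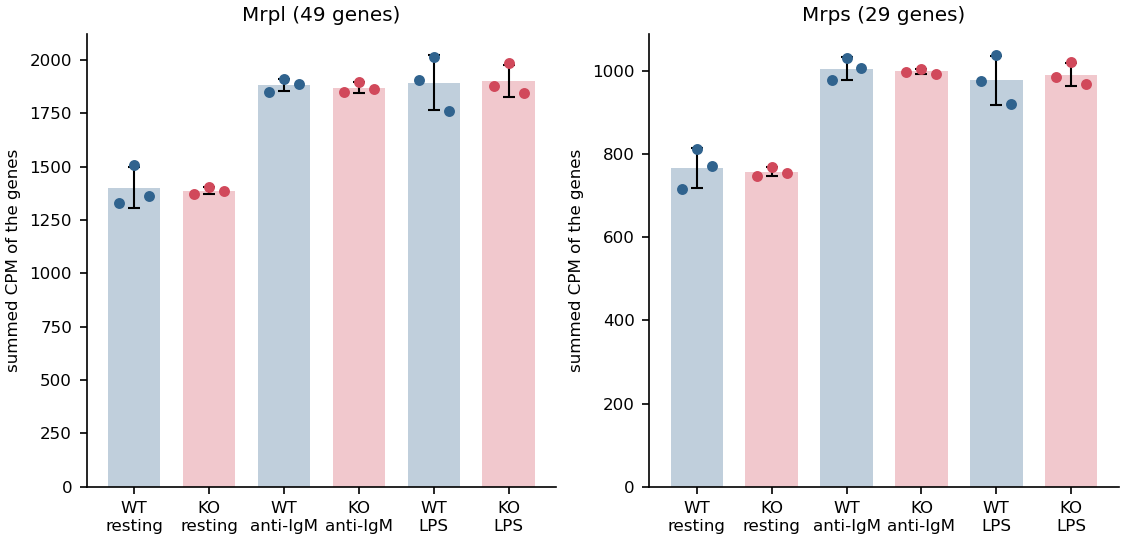
Summed TMM-scaled CPM of the 49 Mrpl genes (left) and the 29 Mrps genes (right) in each group. Points are single libraries, bars are means and error bars are SD (n = 3). Every stimulated library lies above every resting library of its genotype, and the WT and Ubqln1-/- (KO) groups overlap within each condition.

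The largest rise in WT cells was that of Mrpl17 (chr7:105803782-105811087, minus strand), which lies at the rim of the tunnel where the new chain leaves the ribosome. Its RPKM was 3.81, 5.38 and 4.43 in resting WT cells, 9.77, 11.03 and 11.9 with anti-IgM and 10.8, 12.8 and 10.4 with LPS. All 6 stimulated libraries were above the 3 resting ones. The log2 fold change was 1.25 ± 0.111 (SE) with anti-IgM and 1.32 ± 0.110 with LPS (adjusted p = 4.66e-08 and 5.2e-08). For Ubqln1-/- cells, where RPKM rose from 4.14, 4.79 and 4.34 to 10.1, 10.7 and 9.98 with anti-IgM, the values were 1.22 ± 0.110 and 1.34 ± 0.111. Its promoter, shown above, holds an ETS and an NRF1 match.

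Mrpl12 (chr11:120484637-120488754, plus strand) forms the flexible stalk that recruits translation factors. It stood at 33.3, 44.3 and 38.0 RPKM in resting WT cells, at 81.7, 89.1 and 92.0 with anti-IgM and at 82.5, 93.4 and 75.6 with LPS. The stimulated libraries again lay clear of the resting ones. The log2 fold change was 1.18 ± 0.104 with anti-IgM and 1.12 ± 0.104 with LPS (adjusted p = 4.93e-08 and 1.56e-07), and in Ubqln1-/- cells 1.23 ± 0.105 and 1.26 ± 0.105. A noncoding gene on the opposite strand covers 13.1% of its exonic bases. Of the other proteins of the stalk and its base, Mrpl11 rose by 0.48 and 0.37 and Mrpl54 by 0.79 and 0.53 on the log2 scale in WT cells with anti-IgM and LPS. Mrpl10, the base on which Mrpl12 sits, was not called in WT cells (0.025 and 0.11), and Mrpl53 was lower with LPS in WT cells only (-0.23, adjusted p = 0.0436), a call that was lost without WT LPS replicate 3 (-0.15) or WT resting replicate 2 (-0.17), among others. GENCODE places 88.0% of the exonic bases of Mrpl53 under other genes, mostly the predicted Gm42688 on the same strand.

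In the small subunit Mrps6, Mrps28, Mrps18b and Mrps2 led. Mrps6 (chr16:92058336-92112227, plus strand), which pairs with an S18 protein in bacterial ribosomes, was at 10.3, 12.7 and 11.5 RPKM in resting WT cells, 25.8, 25.5 and 23.9 with anti-IgM and 25.1, 27.99 and 19.6 with LPS. Its log2 fold change was 1.12 ± 0.127 and 1.07 ± 0.126 in WT cells and 1.33 ± 0.126 and 1.21 ± 0.128 in Ubqln1-/- cells. Slc5a3 and the predicted Gm49711, on the same strand, together cover 19.9% of its exonic bases. Slc5a3 was also higher (0.87 ± 0.130 with anti-IgM and 0.47 ± 0.130 with LPS in WT cells), and reads from shared bases cannot be told apart. Mrps28 rose from 17.6, 21.4 and 21.0 RPKM to 38.2, 45.1 and 43.7 with anti-IgM in WT cells (1.08 ± 0.0911, adjusted p = 3.03e-08). Mrps2, the relative of bacterial S2, rose from 12.9, 16.2 and 15.9 RPKM to 28.3, 33.6 and 27.3 with LPS (0.99 ± 0.107, adjusted p = 7.93e-07). Neither gene's stimulated libraries overlapped its resting ones.

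The members also include 3 paralogs of bacterial S18. They did not move together. Mrps18b, of the small subunit, rose from 16.03, 21.5 and 20.4 RPKM at rest to 37.3, 41.4 and 40.9 with anti-IgM and 37.9, 42.1 and 35.5 with LPS in WT cells (log2 fold change 1.04 ± 0.0926 and 0.99 ± 0.0920). Mrps18a, of the large subunit, rose from 21.1, 27.8 and 25.02 RPKM to 40.3, 40.4 and 39.5 and to 35.5, 39.2 and 31.7 (0.70 ± 0.0991 and 0.52 ± 0.0985). Both were called in all 4 comparisons. Mrps18c, the paralog at the place of bacterial S18, was at 30.3, 29.4 and 34.4 RPKM at rest, 31.2, 29.5 and 31.2 with anti-IgM and 32.0, 31.1 and 33.3 with LPS. Its groups overlapped and its log2 fold changes lay between -0.035 and 0.037 in the 4 comparisons (adjusted p = 0.742 to 0.835, SE 0.0889 to 0.0906). The differences between paralogs were not tested. Gm16279, on the opposite strand, covers 30.5% of the exonic bases of Mrps18b. Gm43511, on the same strand, covers 23.2% of those of Mrps18c, and reads from shared bases cannot be told apart. The Mrps18c window holds an E-box and an ETS match, so a match to either was present in a promoter whose gene was not called.

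**Figure D3:**
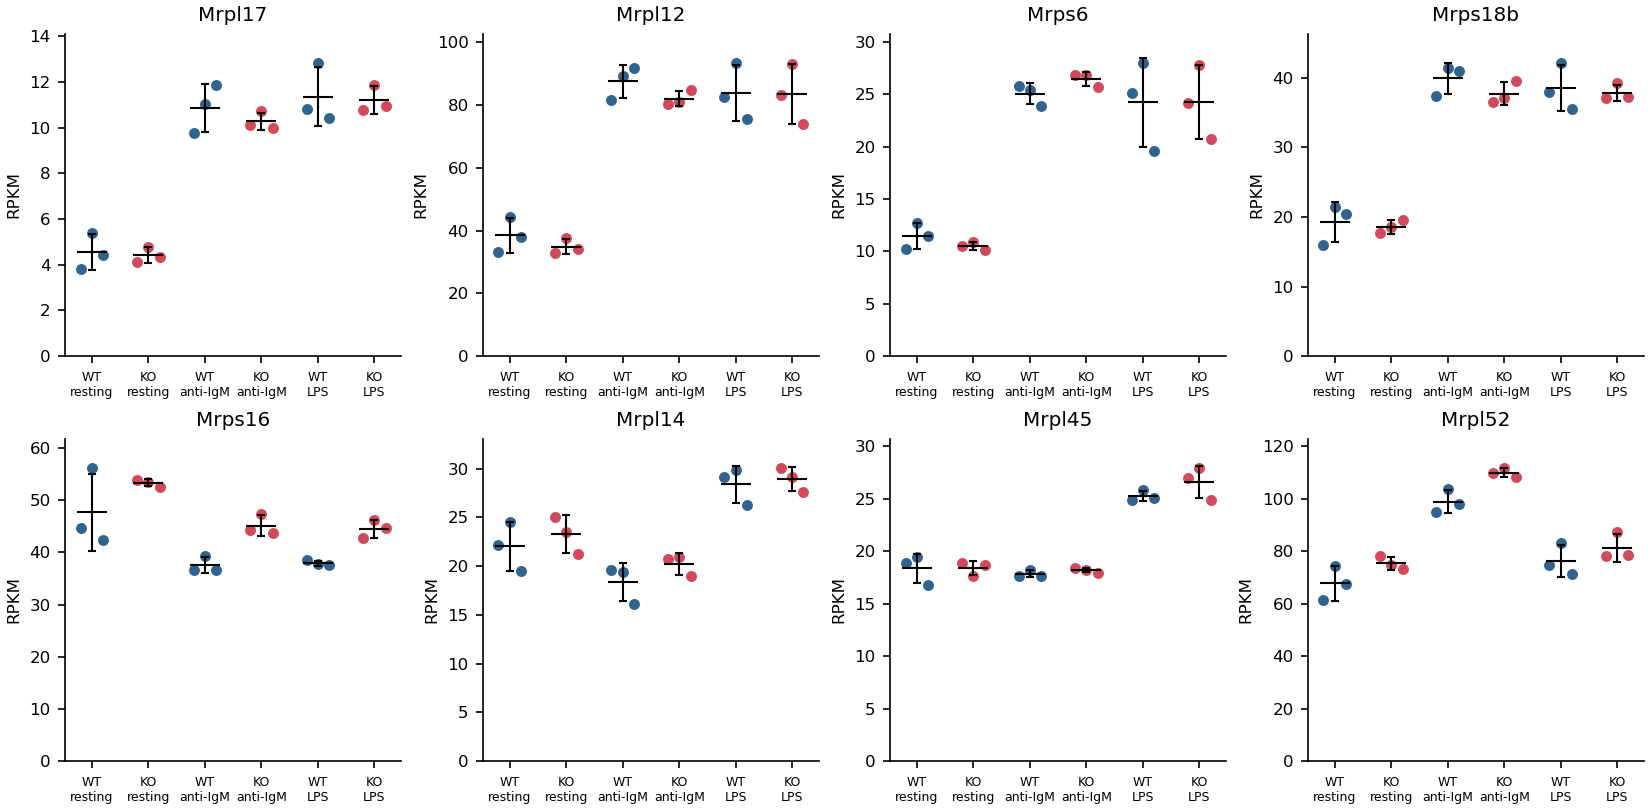
RPKM of 8 named members in each group. Points are single libraries (blue WT, red Ubqln1-/-, marked KO), horizontal lines are means and error bars are SD (n = 3), and each axis starts at 0. Mrpl17, Mrpl12, Mrps6 and Mrps18b stand higher with either stimulus, Mrps16 lower, Mrpl45 and Mrpl14 higher with LPS, and Mrpl52 highest with anti-IgM.

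Among the members that fell, Mrps16 (chr14:20391222-20393634, minus strand), the relative of bacterial S16, was at 44.6, 56.2 and 42.4 RPKM in resting WT cells, 36.7, 39.4 and 36.7 with anti-IgM and 38.5, 37.8 and 37.6 with LPS. Every stimulated library was below every resting one. Its log2 fold change was -0.35 ± 0.0848 and -0.34 ± 0.0838 in WT cells (adjusted p = 0.00168 and 0.00237). Without WT resting replicate 2 these values were -0.20 and -0.19, still called. In Ubqln1-/- cells it was -0.24 ± 0.0832 and -0.26 ± 0.0842 (adjusted p = 0.0183 and 0.0137). The call with anti-IgM there was lost when any one of Ubqln1-/- anti-IgM replicate 1 or 3 or Ubqln1-/- resting replicate 1 or 2 was left out (-0.20 to -0.23), and the call with LPS without Ubqln1-/- LPS replicate 1 (-0.22). Mrpl49 fell by a similar amount, from 24.8, 22.6 and 20.7 RPKM to 19.5, 19.2 and 18.1 with anti-IgM in WT cells (-0.26 ± 0.0771, adjusted p = 0.0071), and its values in the other 3 comparisons were -0.26 to -0.28. Its call with LPS in WT cells was lost with only the groups compared (-0.265). Syvn1, on the opposite strand, covers 4.9% of its exonic bases and fell as well (-0.44 ± 0.0914 with anti-IgM and -0.42 ± 0.0913 with LPS in WT cells). Without strand, reads from the shared bases cannot be told apart.

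Mrps25 was the third member lower in all 4 comparisons, with log2 fold changes from -0.29 ± 0.0504 to -0.39 ± 0.0505. Its level in WT cells was 18.5, 17.2 and 17.3 RPKM at rest and 14.9, 14.6 and 13.8 with anti-IgM. Nr2c2, on the opposite strand, covers 69.8% of the exonic bases of Mrps25 and fell as well (-0.42 ± 0.0648 with anti-IgM and -0.38 ± 0.0647 with LPS in WT cells), and without strand the reads of the pair cannot be told apart. Mrpl4 was lower with anti-IgM only, from 29.4, 29.6 and 25.6 RPKM to 24.98, 21.6 and 22.5 in WT cells (-0.29 ± 0.0909, adjusted p = 0.00999). This call was lost without WT anti-IgM replicate 2 (-0.24) or WT resting replicate 2 (-0.24), and in Ubqln1-/- cells without Ubqln1-/- anti-IgM replicate 2 (-0.22). Mrpl34, a small protein of the large subunit, was lower with LPS, from 36.6, 43.7 and 34.2 RPKM to 31.2, 30.4 and 26.2 in WT cells (-0.39 ± 0.104, adjusted p = 0.00413). In Ubqln1-/- cells its value was -0.33 ± 0.106 and the call was lost without Ubqln1-/- LPS replicate 3 (-0.27) or Ubqln1-/- resting replicate 1 (-0.25). Mrpl18 was lower with LPS in Ubqln1-/- cells only (-0.27 ± 0.0832, adjusted p = 0.0113), and lost the call without the same replicates (-0.18 and -0.23).

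By place in the ribosome, 6 of the 8 members listed here for the central protuberance, which faces the head of the small subunit, were higher with anti-IgM in WT cells. Mrpl38 (0.63) and Mrpl55 (0.61) rose most, while Mrpl48 (0.050) and Mrpl18 (-0.099) were not called. The 8 do not include Mrpl58, and the count holds for this list alone. Of the 6 members around the exit tunnel Mrpl17 and Mrpl47 were higher with anti-IgM in both genotypes, a share of 33.3% beside 32.4% and 32.9% of all genes, so the count does not set this site apart from all genes. With LPS 4 of the 6 were higher in each genotype, beside 31.2% of all genes in WT and 30.6% in Ubqln1-/- cells. Mrpl45, which ties the mitoribosome to the inner membrane, was added in both, Mrpl23 in WT cells and Mrpl22 in Ubqln1-/- cells. Mrpl23 rested on 12 to 48 counts per library. Ndufb5 and Actl6a, on the opposite strand, together cover 24.2% of the exonic bases of Mrpl47. In WT cells Actl6a was also higher (0.505 ± 0.0578 with anti-IgM and 0.475 ± 0.0576 with LPS), while Ndufb5 was not called (0.017 and -0.008). Without strand, reads from the shared bases cannot be told apart. The 10 members called in no comparison were Mrpl24, Mrpl28, Mrpl43, Mrpl48, Mrpl57, Mrpl58, Mrps18c, Mrps26, Mrps35 and Mrps36. Mrpl58 is a peptidyl-tRNA hydrolase that frees stalled chains and a structural protein at once (log2 fold change 0.13 ± 0.0720 with anti-IgM in WT cells).

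The rise was also measured in members without an annotated exonic overlap. Of the 78 members, 45 share no exonic base with another GENCODE gene. They include Mrpl23 and Mrps36, whose reads may be shared with pseudogene copies, so shared reads are not excluded. With anti-IgM in WT cells 35 of these 45 were higher and 2 lower, with a median log2 fold change of 0.48, and with LPS 33 were higher and 2 lower (median 0.44). The same 45 gave in Ubqln1-/- cells 34 higher and 2 lower with anti-IgM and 35 higher and 2 lower with LPS. Of all genes, 32.4% were higher and 32.2% lower with anti-IgM in WT cells, and 31.2% and 30.1% with LPS. In Ubqln1-/- cells these shares were 32.9% and 32.4%, and 30.6% and 30.2%. Among the 10 members with over 20% of their exonic bases shared, 5 were higher in each of the 4 comparisons.

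The stimuli differed in few members. With LPS against anti-IgM in WT cells 4 members were higher and 5 lower (background 17.4% and 15.0%), and in Ubqln1-/- cells 5 were higher and 3 lower (background 16.8% and 14.5%). With the replicate number as a block the counts were 7 and 7 in WT cells and 9 and 6 in Ubqln1-/- cells. Scaling to library size alone gave 2 higher and 8 lower in each genotype, so the split between directions depends on the scaling. No member exceeded a log2 difference of 1 or passed the study's threshold (9.42% and 2.51% of all genes in WT cells, 8.73% and 2.24% in Ubqln1-/- cells). Single libraries also moved it: leaving out WT anti-IgM replicate 1 left 2 higher and 2 lower in WT cells, and leaving out Ubqln1-/- LPS replicate 1 or Ubqln1-/- anti-IgM replicate 1 left 3 higher and 1 lower in Ubqln1-/- cells. Called in both genotypes were Mrpl14, Mrpl32 and Mrpl45, higher with LPS, and Mrpl52 and Mrpl54, higher with anti-IgM.

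Mrpl45 (chr11:97314923-97329920, plus strand) was the clearest of these. Its RPKM in WT cells was 18.8, 19.4 and 16.8 at rest, 17.7, 18.2 and 17.7 with anti-IgM and 24.9, 25.8 and 25.1 with LPS. The LPS libraries lay above all others, and the anti-IgM and resting libraries overlapped. LPS exceeded anti-IgM by 0.50 ± 0.0587 on the log2 scale in WT cells and by 0.55 ± 0.0589 in Ubqln1-/- cells (adjusted p = 3.69e-06 and 1.56e-06). Its promoter holds 3 NRF1 matches.

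Mrpl14 (chr17:45685722-45698495, plus strand), on the face of the large subunit that meets the small one, had changes of opposite sign with the 2 stimuli. In Ubqln1-/- cells its log2 fold change was -0.20 with anti-IgM, not called, and 0.31 with LPS. In WT cells it was at 22.1, 24.5 and 19.5 RPKM at rest, 19.7, 19.4 and 16.1 with anti-IgM and 29.1, 29.9 and 26.2 with LPS. It was lower with anti-IgM by -0.26 ± 0.103, with resting and stimulated libraries overlapping (adjusted p = 0.034), and higher with LPS by 0.36 ± 0.0999 (adjusted p = 0.00466). The difference between LPS and anti-IgM was 0.63 ± 0.10 in WT cells and 0.52 ± 0.10 in Ubqln1-/- cells (adjusted p = 0.000104 and 0.000736). Tmem63b, which starts 131 bases away on the opposite strand and covers 11.2% of the exonic bases of Mrpl14, had the same signs (-0.33 ± 0.0971 and 0.68 ± 0.0947 in WT cells).

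Mrpl52, of the central protuberance, showed the opposite preference. It rose from 61.3, 74.5 and 67.7 RPKM at rest to 95.0, 103.9 and 98.0 with anti-IgM in WT cells, and stood at 74.7, 83.2 and 71.3 with LPS. LPS was below anti-IgM by -0.37 ± 0.0751 in WT cells and -0.43 ± 0.0756 in Ubqln1-/- cells (adjusted p = 0.000936 and 0.000273). Mrpl54 differed by -0.26 ± 0.0758 and -0.23 ± 0.0765, and Mrpl32 by 0.24 ± 0.0802 and 0.23 ± 0.0810. For Mrpl54 the call was lost without WT LPS replicate 3 (-0.22) or WT anti-IgM replicate 1 (-0.24) in WT cells, and without 5 of the 6 libraries compared, each in turn, in Ubqln1-/- cells (-0.19 to -0.24). For Mrpl32 it was lost in WT cells without WT LPS replicate 1 or 2 or WT anti-IgM replicate 1, and with only the groups compared or library size alone (0.19 to 0.24). Mrps28 was lower with LPS than with anti-IgM in WT cells (-0.32 ± 0.0868, adjusted p = 0.00861), but not without WT anti-IgM replicate 2 (-0.27).

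**Figure D4:**
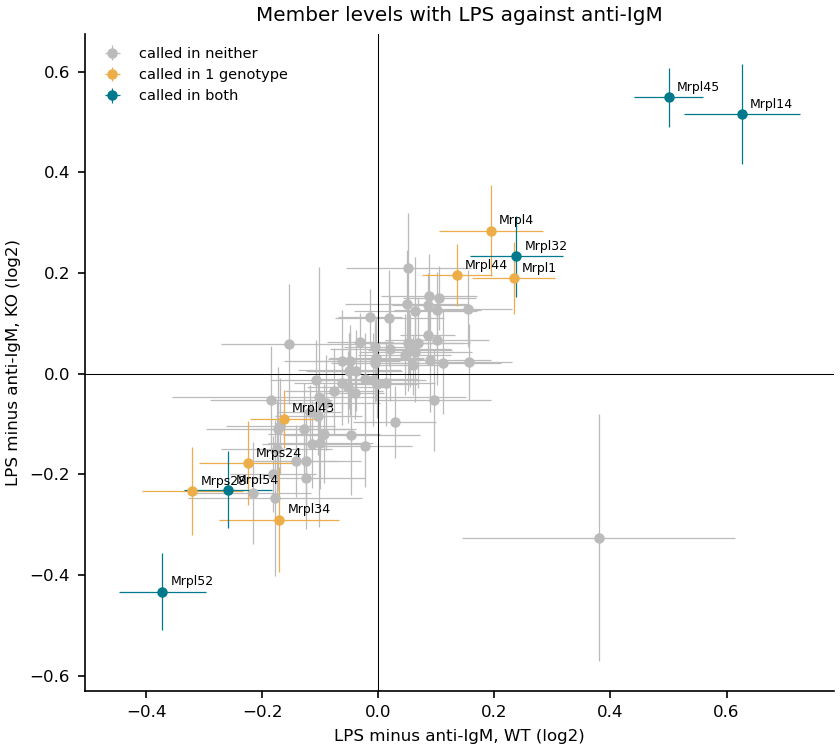
Difference between LPS and anti-IgM (log2) for each of the 78 members in WT cells (horizontal axis) and Ubqln1-/- cells (KO, vertical axis). Points are edgeR estimates, bars are standard errors and color gives the number of genotypes in which the difference was called. Mrpl45 and Mrpl14 stand apart at the upper right and Mrpl52 at the lower left, and the gray point at the lower right is Mrpl23, the member with few counts.

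No member differed between genotypes at an adjusted p of 0.05. The counts were 0 of 78 at rest, with anti-IgM and with LPS by edgeR, limma with voom and DESeq2 alike, where edgeR called 0.0565%, 0.0989% and 0.0424% of all genes in either direction. At an unadjusted p of 0.05, edgeR gave 1 member in each condition, where 4.22%, 5.14% and 3.93% of all genes passed. The median log2 difference between Ubqln1-/- and WT cells was -0.027, -0.0091 and 0.012, and 77, 76 and 77 of the 78 differences were smaller than 0.25 in size. The median standard error was 0.087, 0.084 and 0.084, which sets the size of difference that 3 libraries a group could show. Summed over the members, resting cells had 2167 ± 140 CPM in WT and 2144 ± 27.1 CPM in Ubqln1-/-, anti-IgM 2887 ± 57.2 and 2869 ± 29.6 CPM, and LPS 2871 ± 187 and 2893 ± 102 CPM, with differences below the spread of the WT libraries.

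Mrps16 came nearest to a difference. With anti-IgM it was at 36.7, 39.4 and 36.7 RPKM in WT and 44.4, 47.4 and 43.8 RPKM in Ubqln1-/- cells, and with LPS at 38.5, 37.8 and 37.6 against 42.7, 46.3 and 44.6. The genotypes did not overlap in either condition, but overlapped at rest (44.6, 56.2 and 42.4 against 54.0, 53.5 and 52.6). The log2 difference was 0.27 ± 0.0840 with anti-IgM and 0.23 ± 0.0840 with LPS, and neither passed (adjusted p = 0.526 and 0.857). With the replicate block the adjusted p was 0.103 and 0.206. In all, 2 members had all Ubqln1-/- libraries above all WT libraries at rest, 2 with anti-IgM and 1 with LPS, where 4.45%, 6.32% and 3.66% of all genes did. All lay below for 0, 3 and 1 members (3.44%, 5.08% and 3.35% of all genes). Mrpl1 (0.16 ± 0.0738) and Mrpl52 (0.15 ± 0.0774) had the smallest p-values at rest, Mrpl52 (0.15 ± 0.0747) and Mrpl9 (-0.10 ± 0.0554) followed Mrps16 with anti-IgM, and Mrps11 (0.13 ± 0.0745) and Mrpl23 (-0.39 ± 0.241) followed it with LPS, each with an adjusted p of 0.997 or more. Leaving out 1 library moved the values at rest as low as 0.10 for Mrpl1, 0.065 for Mrpl52 and 0.063 for Mrps16, and that of Mrpl23 with LPS to between -0.57 and -0.19.

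The response to each stimulus was compared between genotypes by an interaction term. None of the 78 members was called for anti-IgM or LPS, as was none (0.0%) of the 14161 genes, and 0 members passed an unadjusted p of 0.05 (0.989% and 1.55% of all genes). WT and Ubqln1-/- log2 fold changes had the same sign for 78 of 78 members with anti-IgM and 75 of 78 with LPS. Across the members, which share libraries, Pearson's r was 0.964 and 0.938, and the median absolute difference was 0.053 and 0.071. The differences with the smallest p-values with anti-IgM were those of Mrps36, Mrpl16 (-0.18 ± 0.119) and Mrpl51 (0.21 ± 0.143), and with LPS those of Mrps36, Mrpl23 (-0.57 ± 0.366) and Mrps28 (0.19 ± 0.129). Single libraries moved these by over 1.5 times: Mrpl51 was at 0.076 without WT resting replicate 2 and 0.32 without WT resting replicate 1. Mrpl16 was at -0.11 to -0.12 without WT resting replicate 1, WT anti-IgM replicate 2 or Ubqln1-/- anti-IgM replicate 3. Mrps28 was at 0.12 without WT LPS replicate 3, and Mrps36 and Mrpl23 with LPS were at 0.41 and -0.37 without Ubqln1-/- LPS replicate 3. The largest was that of Mrps36 (0.58 ± 0.380 with anti-IgM and 0.63 ± 0.383 with LPS), whose few counts give it a wide error.

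Other genes of the pathway, listed by role, moved in part with the members. Of 5 further mitoribosomal proteins without an Mrp name, Aurkaip1, Chchd1, Gadd45gip1 and Ptcd3 were higher in all 4 comparisons. Ptcd3, of the small subunit, had log2 fold changes of 0.84 with anti-IgM and 0.95 with LPS in WT cells. Dap3, a GTP-binding protein of the small subunit, was called in none (-0.028 and 0.025). Of 25 assembly and rRNA modification factors, 13 were higher and 3 lower with anti-IgM in WT cells, and 15 and 6 with LPS. Their medians were 0.25 and 0.24. Of all genes, 32.4% were higher and 32.2% lower with anti-IgM, and 31.2% and 30.1% with LPS. The counts in Ubqln1-/- cells were 14 and 2 with anti-IgM and 12 and 3 with LPS. The shares of all genes there were 32.9% and 32.4%, and 30.6% and 30.2%. Mrm3, a methyltransferase of the large rRNA, rose from 10.4 to 26.8 CPM with anti-IgM and to 28.8 CPM with LPS in WT cells (log2 fold change 1.36 and 1.47). Rcc1l, an RCC1-like protein (1.20 and 1.03), and Noa1, a GTPase (1.15 and 1.28), followed. Rpusd3, a pseudouridine synthase, was lower (-0.52 and -0.62), as was Mrm2 (-0.43 and -0.68).

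Of 13 mitochondrial translation factors, 6 were higher and 2 lower with anti-IgM in WT cells, and 5 and 2 with LPS. The shares higher were 46.2% and 38.5%, beside 32.4% and 31.2% of all genes, and the list's median log2 fold changes were near 0 (0.064 and 0.053). Ubqln1-/- cells had 6 higher and 2 lower with anti-IgM, and 5 and 3 with LPS, with medians of 0.082 and 0.0047. The elongation factor Gfm1 rose by 0.74 and 0.76 on the log2 scale in WT cells, and the ribosome recycling factor Mrrf by 0.83 and 0.76. Gfm2, which acts in recycling, was lower (-0.43 and -0.29), as was the release factor Mtrf1 (-0.69 and -0.53). Cytosolic ribosomal proteins gave 46 higher and 1 lower of 81 tested with anti-IgM and 34 and 6 with LPS in WT cells, with medians of 0.28 and 0.15. Their summed level in WT cells changed little, at 11280 ± 1060 CPM at rest, 11950 ± 545 CPM with anti-IgM and 11210 ± 482 CPM with LPS. The ratios to rest were 1.06 and 0.994, where those of the members were 1.33 and 1.32. Nuclear subunits of the respiratory chain and ATP synthase gave 44 higher and 9 lower of 79 with anti-IgM and 38 and 8 with LPS. Their medians were 0.21 and 0.19, and the ratios of their summed level to rest were 1.21 and 1.17. Called higher were 56.8% and 42.0% of the ribosomal list and 55.7% and 48.1% of the respiratory list, beside 32.4% and 31.2% of all genes. These counts, medians and sums are descriptions of lists and no test was made between them.

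Promoter windows were found in RefSeq for 69 of the 78 members, 75 windows in all, each 300 bases long. Their median GC content was 58.7%, against 60.7% for 12201 windows of tested protein-coding genes. None held TATAAA between 50 and 10 bases before the start, where 1.2% of the comparison windows did. The ETS letters were in 34.7% of member windows, against 17.8% of those of tested protein-coding genes and 8.86% of all windows in the table. The YY1 letters were in 16.0%, against 4.49% and 2.75%, and the NRF1 letters in 17.3%, against 10.1% and 4.6%. The E-box letters were in 9.33%, against 9.97% and 7.15%. Of the 7 member windows with an E-box, 3 are overlapping windows of Mrpl2, and counted by gene the share was 7.25% of members against 11.8% of tested protein-coding genes. An SP1 motif (GGGCGG) was in 52.0%, against 61.7% and 35.7%. Both strands were searched, and in 2 member windows matches to different motifs shared bases. These matches are descriptions of letters, not of binding.

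**Figure D5:**
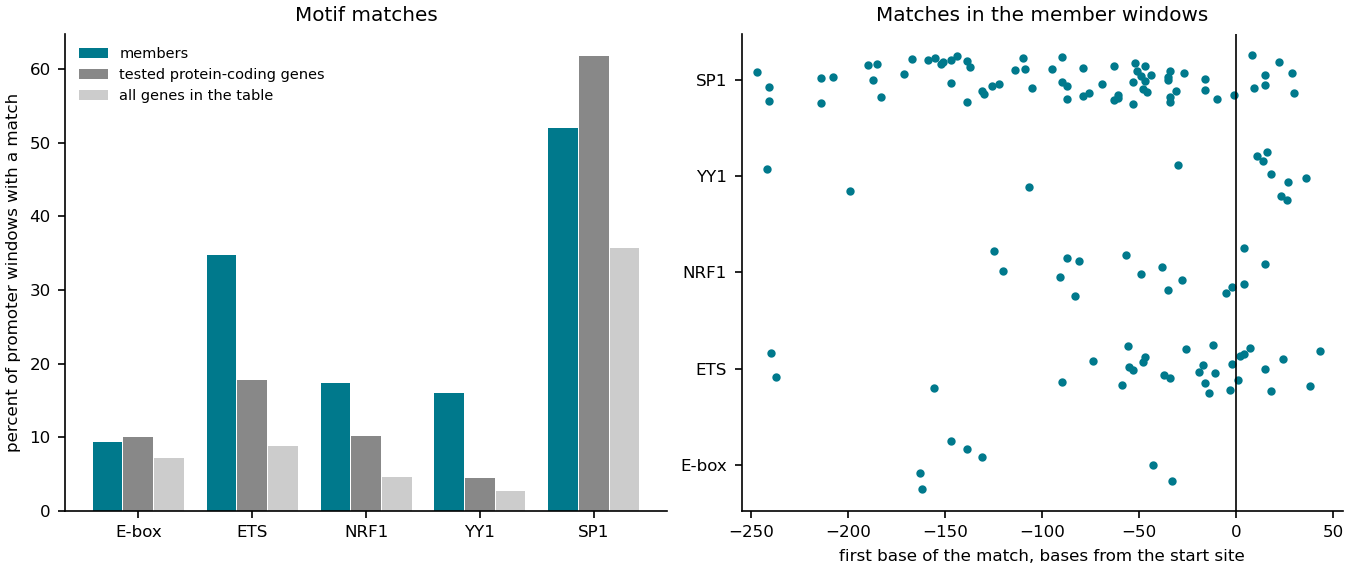
Left, percent of promoter windows with at least 1 match to each motif, for the members (75 windows), tested protein-coding genes (12201) and all genes in the table (32851). Right, position of each match in the member windows, in bases from the start site, with points spread vertically for visibility. ETS and NRF1 matches lie mostly within 100 bases of the start (28 of 31 and 14 of 16), and 8 of 12 YY1 matches lie after it.

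Members with and without each match were also set side by side. With anti-IgM in WT cells the median log2 fold change was 0.32 for 26 members with an ETS match and 0.42 for 43 without, and with LPS 0.18 and 0.46. For NRF1 it was 0.24 for 13 members with and 0.42 for 56 without with anti-IgM, and 0.38 and 0.40 with LPS, although Mrpl17 and Mrpl12 are among those with a match. The NRF1 medians in Ubqln1-/- cells were 0.22 with and 0.48 without for anti-IgM, and 0.40 and 0.39 for LPS. For YY1 it was with anti-IgM 0.41 for 12 members with and 0.34 for 57 without, and for the E-box 0.55 for 5 with and 0.37 for 64 without. The 5 members with an E-box were Mrpl2, Mrpl20, Mrpl36, Mrpl37 and Mrps18c, of which all but Mrps18c were higher in all 4 comparisons. The YY1 letters were found in Mrps18a and Mrps27, which rose, and in Mrpl49, which fell. No test was made of these splits.

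Members often start close to another gene. A divergent protein-coding start on the opposite strand (up to 1000 bases upstream, or up to 200 bases inside the gene) was listed for 25 of 69 members (36.2%), against 1336 of 9586 tested protein-coding genes (13.9%). Counted from each member, 18 of 25 such pairs changed in the same direction with anti-IgM in WT cells and 16 of 25 with LPS. In Ubqln1-/- cells 18 and 15 did. The share among pairs of other genes was not computed. Of the 25 partners in WT cells, 9 were called higher and 5 lower with anti-IgM, and 13 and 5 with LPS. Of all genes, 32.4% were higher and 32.2% lower with anti-IgM, and 31.2% and 30.1% with LPS. The median partner log2 fold change in WT cells was 0.11 and 0.20. Mrpl46 and Mrps11 form a pair within the family, 42 bases apart on chromosome 7, which is counted from both sides. Mrpl46 rose from 18.5, 22.8 and 22.0 RPKM to 29.9, 28.3 and 31.1 with anti-IgM and 30.9, 35.1 and 33.4 with LPS in WT cells, and Mrps11 from 14.8, 14.9 and 16.7 RPKM to 18.2, 18.7 and 18.8 and to 17.1, 18.3 and 18.4. Both were higher in all 4 comparisons, by 0.49 and 0.64 for Mrpl46 and 0.27 and 0.22 for Mrps11. Mrpl43 was not called (0.088 and -0.075), while its partner Twnk, the helicase that unwinds mitochondrial DNA for replication, 116 bases away, rose by 1.24 and 1.02. Mrpl18 was likewise not called in WT cells beside Tcp1, a subunit of the cytosolic chaperonin, 238 bases away, which rose by 0.79 and 0.84. These pairs also overlap. Twnk covers 33.4% of the exonic bases of Mrpl43, and Tcp1 covers 10.1% of those of Mrpl18. Mrps11 covers 12.2% of those of Mrpl46, and Mrpl46 covers 8.0% of those of Mrps11. Without strand, reads from the shared bases cannot be told apart.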

How the data were processed

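The data were poly(A) RNASeq libraries (single-end, unstranded kit) of splenic B cells in 6 groups of 3. Per the labels and Materials and methods, GSNAP alignments to GRCm38 were used by the authors, who deposited, for each library, a count of exonic reads per Entrez gene, the gene width and RPKM. The counting program and annotation release are not given in the sources used here. The deposited RPKM was not used for tests. RPKM printed here was recomputed from counts, width and TMM-scaled library size.

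Symbols and positions came from RefSeq GRCm38.p6 and exon overlaps from GENCODE vM21. edgeR 4.0.16 (TMM, filterByExpr, 14161 genes kept, quasi-likelihood test, R 4.3.3) was fitted to all 18 libraries with 1 term per group, and p-values were adjusted by Benjamini-Hochberg over all genes tested, in 11 comparisons. The biological coefficient of variation was 10.1%. SE is the size of a log2 fold change divided by the square root of F. The script was tested on simulated counts. Replicates carry numbers in the labels, and the first by elimination. Same-numbered libraries deviated together (mean r 0.266 over 45 pairs of libraries, and every pair over 0.1 in 8 of the 9 comparisons between groups, the exception being the genotypes at rest), and a fit with the number as a block was an alternative. The study calls them independent experiments. Whether each used separate animals is not given in the sources used here. Counting error and depth limit precision for members with few counts.

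Alternatives were limma 3.58.1 with voom, DESeq2 1.42.0, RLE or library-size scaling, other filters and thresholds, only the groups compared, and leaving out each library. Named members are the 5 largest called rises and falls with no overlap of libraries in each stimulus comparison, the 3 largest in each direction for LPS against anti-IgM, the 3 smallest p-values in each genotype comparison, the highest and lowest levels, the S18 paralogs and members of structural lists. Members, lists and motifs were chosen with earlier results of these data known. One marker gene is not reported here. Members in overlap, promoter and neighbor paragraphs were named after their values were seen.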

Additional observations from a re-analysis of the deposited data

How the results depend on the processing

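None of the log2 fold changes of named members reversed under 26 alternatives. Medians near 0 could change sign. The median genotype difference of the members with anti-IgM was -0.0091, and 0.0103 with library size alone. For LPS against anti-IgM in Ubqln1-/- cells the median was 0.0054, and -0.063 with library size alone. With a log2 fold change over 2 and an adjusted p under 0.001, 0 members were called in any direction of any stimulus comparison. With a log2 fold change over 1, 5, 5, 3 and 7 members were higher with anti-IgM in WT and Ubqln1-/- cells and with LPS in WT and Ubqln1-/- cells, 0 were lower, and 0 differed between the stimuli. The count of members lower with LPS in WT cells was 3 with only the groups compared. For LPS against anti-IgM in WT cells, library size alone gave 2 higher and 8 lower, the replicate block 7 higher, and no expression filter and only the groups compared 3 lower each. In Ubqln1-/- cells library size alone gave 2 higher and 8 lower, no expression filter 3 higher and 1 lower, the replicate block 9 higher and 6 lower, only the groups compared 7 lower, and DESeq2, RLE and at least 10 counts in every library 5 lower each. The causes were not tested. Library size alone moved the summed level in resting and anti-IgM Ubqln1-/- cells to 2187 and 2914 CPM. The replicate block changed no other call count by over 1.5 times.

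Leaving out each library in turn gave 51 to 55 higher and 3 to 6 lower for anti-IgM in WT cells (3 without WT resting replicate 2), 49 to 55 and 3 to 5 in Ubqln1-/- cells, 50 to 58 and 4 to 5 for LPS in WT cells, and 51 to 58 and 3 to 5 in Ubqln1-/- cells (3 without Ubqln1-/- LPS replicate 3 or resting replicate 1). LPS against anti-IgM gave 2 to 5 and 2 to 7 in WT cells (2 higher without WT LPS replicate 1 or 2 or anti-IgM replicate 1, and 2 or 3 lower without any one WT anti-IgM library, WT LPS replicate 1 or 3, Ubqln1-/- LPS or anti-IgM replicate 1, or Ubqln1-/- resting replicate 2 or 3), and 3 to 6 and 1 to 6 in Ubqln1-/- cells (3 higher without Ubqln1-/- LPS or anti-IgM replicate 1, 1 lower without either of these or LPS replicate 3, and 6 lower without WT resting replicate 1). Genotype counts stayed at 0. Of 65 values of named members, 14 lost their call under at least 1 alternative, and 55 of 1690 recomputed values missed the threshold. Members with few counts (Mrpl23, Mrps36) are limited by depth.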
